A study of Canis lupus familiaris with 8 samples.

Results

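In dog retina prepared in 2 ways, 53 of the 12824 genes measured (0.413%) lay below 1 CPM in every one of the 4 fresh-frozen libraries. CPM is the read count of a gene scaled to the size of its library, here an adjusted size. On the log2 CPM scale on which the authors deposited their values, 1 CPM is 0. The 53 genes were chosen by these 4 fresh-frozen values alone. Symbols starting with COL, LAM, MMP, ADAM, KCN or ZNF were to be left out, and no gene that met the rule had one. Many of the 53 are best known from tissues other than retina, among them the iodide transporter SLC5A5 of thyroid, the limb patterning factor HOXD13, the meiotic gene STRA8 and the agouti signal ASIP of skin. In PFA-fixed retina the same genes averaged between 0.45 and 2.39 log2 CPM.

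The PFA-fixed group comprised 4 libraries from left eyes of male wild-type Beagles aged 31 weeks. These eyes were fixed for 3 h in 4% and then for 24 h in 2% paraformaldehyde (PFA, a crosslinking fixative) at 4 °C, and cryoprotected in sucrose of 15% and then 30%. Their RNA was taken with the RNeasy FFPE kit after proteinase K at 56 °C for 18 h and a second removal of DNA. The fresh-frozen group comprised 4 libraries from right eyes of dogs of the same sex, breed, genotype and age, frozen without fixation and extracted with the RNeasy Plus Micro kit. The SMARTer Stranded Total RNA-Seq v3 Pico kit served for both groups. Preparation, side of the eye and extraction kit cannot be told apart in any difference given here. The series calls the libraries of a group biological replicates, names no animals and mentions laser capture in its title without saying whether these libraries were captured. The p-values below set the difference between the groups against the spread between libraries within a group, which is not tied to named animals.

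Retina is a thin neural tissue in which rod photoreceptors outnumber the other cells. Rods, cones, bipolar cells and ganglion cells pass on the light signal, Müller glia support them, and the pigment epithelium, choroid and sclera lie behind. Genes for gamete formation, digestion, thyroid hormone synthesis, taste or skin keratinisation are best known from other organs. A gene of this kind is usually represented in bulk retina by few reads or none, so its value depends on depth.

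The choice of the genes fixes the direction of their difference. Every gene of the deposited table exceeded 1 CPM in at least 4 of the 8 libraries. A gene below 1 CPM in all 4 fresh-frozen libraries therefore had to exceed it in all 4 PFA-fixed ones, and the groups could not overlap. Levels and differences of the 53 are accordingly given as a description with no test. Genes that were low in both preparations were not analysed here. By the mirrored rule, 163 genes lay below 1 CPM in every PFA-fixed library. Over all 12824 genes, 31.3% had every PFA-fixed value above every fresh-frozen value, 1.67% were higher by at least 2 on the log2 scale, and limma called 33.9% higher and 34.7% lower in PFA-fixed retina at an adjusted p under 0.05, together 68.7%. Nothing is read from the counts of the 53 against these shares.

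The label retina was checked against markers. All 14 rod markers were measured, and their summed level was 39858 to 44505 CPM in PFA-fixed and 36274 to 41622 CPM in fresh-frozen libraries. By limma 7 of them were higher and 3 lower in PFA-fixed retina, a split that became 3 and 4 when the libraries were aligned on the rod markers' mean. Of 14 measured markers of other retinal cells 6 were higher and 4 lower, with GRM6 of bipolar cells at a difference of 1.11 on the log2 scale and RLBP1 of Müller glia and pigment epithelium at -3.17. Their summed level was 5338 to 6268 CPM in PFA-fixed and 5018 to 5990 CPM in fresh-frozen libraries. The tissues behind the retina moved with the preparation. All 16 markers of pigment epithelium, melanocytes and sclera were lower in PFA-fixed retina by limma. Of these, 11 exceeded 1 CPM in all 8 libraries, and the filter bears on the direction of the others. The 16 summed to 108 to 175 CPM in PFA-fixed and 9968 to 13484 CPM in fresh-frozen libraries. MLANA and DPT were at the lowest value of the table in a PFA-fixed library. In bulk samples fewer cells of a type and less RNA per cell cannot be told apart, and the part of these tissues in the values of the 53 genes was not tested. Effective depth, the adjusted library size, differed as well. Estimated from the spacing of the low values, it was 12800000 ± 1850000 reads in PFA-fixed and 22100000 ± 500000 reads in fresh-frozen libraries. By this estimate fresh-frozen libraries were 1.73-fold deeper, and 1 CPM stood for 11.3 reads in PFA-fixed and 19.6 reads in fresh-frozen retina.

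As a set, the 53 genes had a small and steady summed level in each group. Their levels summed to 142, 132, 125 and 134 CPM in the PFA-fixed libraries, against 31.3, 29.5, 30.2 and 33.0 CPM in the fresh-frozen ones. The sums were close within each group, with 133 ± 6.82 CPM in PFA-fixed and 31.0 ± 1.55 CPM in fresh-frozen retina (SD, n = 4 each). Single values ran from 0.21 to 2.98 log2 CPM in PFA-fixed and from -3.12 to -0.0091 log2 CPM in fresh-frozen libraries. All remained low among the genes of PFA-fixed retina too: by their PFA-fixed mean the highest stood at percentile 17.0 of all genes and the median gene at percentile 8.23. The median difference was 2.06 on the log2 scale, with a range of 1.07 to 4.82, against -0.02 over all genes. It was at least 2 for 29 genes, at least 3 for 6 and under 1.5 for 7.

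**Figure D1:**
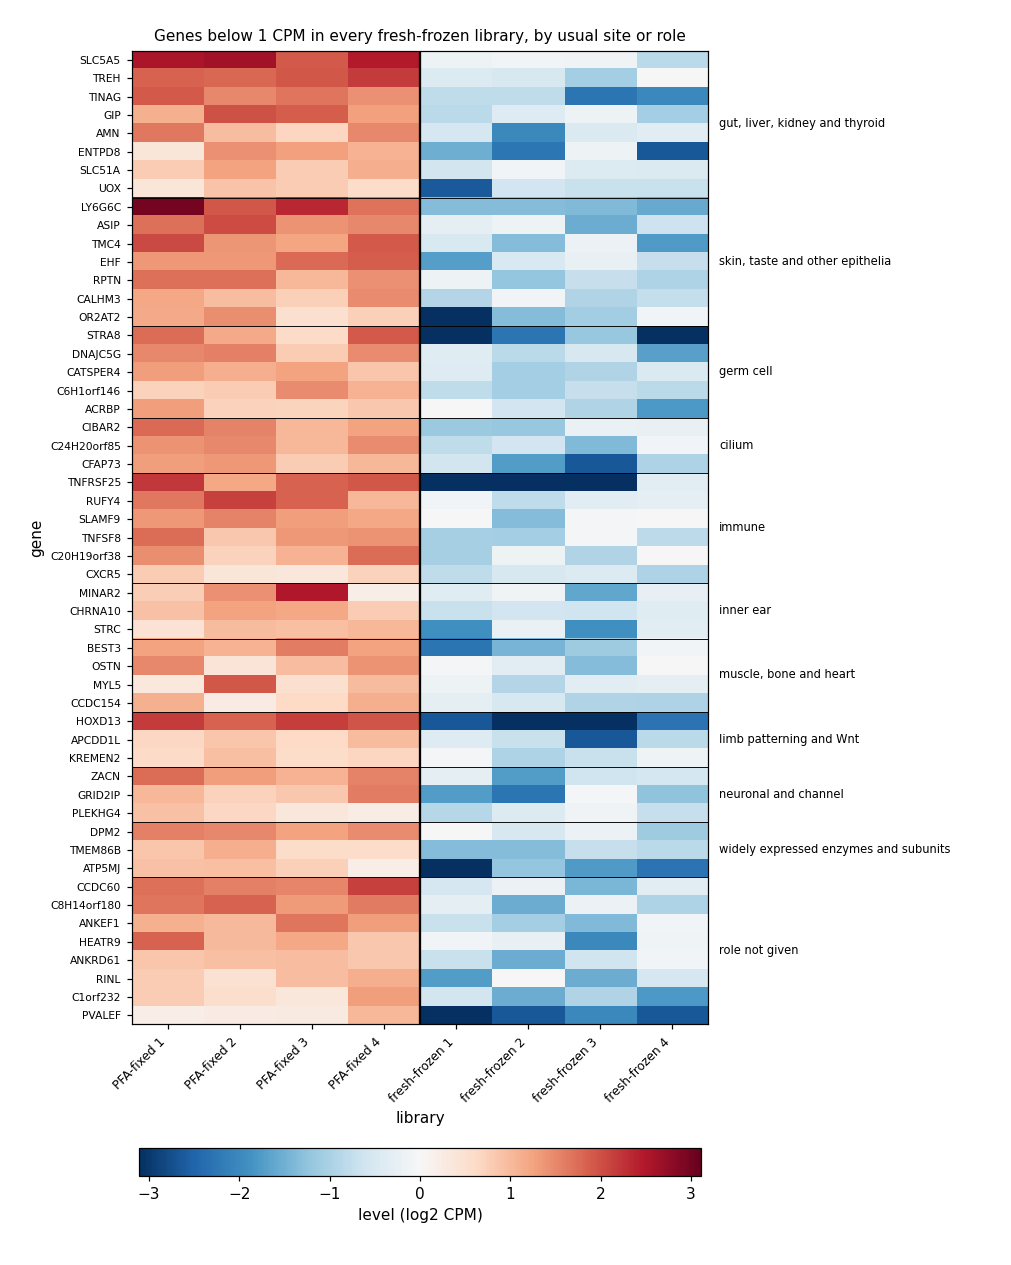
Level (log2 CPM, colour) of the 53 genes (rows, grouped by the usual site or role of the gene) in the 4 PFA-fixed libraries (left) and the 4 fresh-frozen libraries (right). Every PFA-fixed cell is above 0 and every fresh-frozen cell below it, as the choice of the genes requires; the darkest blue cells stand for values at the lowest value of the table, -3.12.

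By usual site or role, 45 of the 53 could be placed in 10 groups, and 8 could not. The groups were assigned by hand after the values were known and serve only to order the description. Levels in CPM are not corrected for transcript length, so the order of genes by level is an order of scaled read counts.

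The largest group comprised 8 genes of gut, liver, kidney and thyroid, with PFA-fixed means between 0.66 and 2.39 log2 CPM. SLC5A5, the sodium and iodide symporter that loads iodide into thyroid cells, had the highest PFA-fixed mean of the 53. It was at 2.55, 2.63, 1.91 and 2.46 log2 CPM in PFA-fixed libraries, against -0.15, -0.088, -0.11 and -0.85 in fresh-frozen ones. PFA-fixed library 3 and fresh-frozen library 4 were the low ones of their groups, and the difference was 2.69 on the log2 scale. TREH, the brush border enzyme trehalase that splits the sugar trehalose, was at 1.85, 1.79, 1.94 and 2.18 log2 CPM in PFA-fixed libraries, against -0.42, -0.50, -1.06 and -0.0092 in fresh-frozen ones. Its highest values were those of library 4 in each group, and the last of them lay just under the threshold. TINAG, a basement membrane antigen of kidney tubules, was at 1.91, 1.5, 1.66 and 1.43 log2 CPM in PFA-fixed libraries, against -0.79, -0.80, -2.28 and -2.02 in fresh-frozen ones. Its fresh-frozen values fell into a higher pair, libraries 1 and 2, and a lower pair, libraries 3 and 4. The remaining genes of the group were GIP, an incretin hormone of the gut, AMN, the partner of cubilin in vitamin B12 uptake, ENTPD8, an ectonucleotidase of liver, SLC51A, a subunit of the bile acid exporter of ileum, and UOX, the liver enzyme urate oxidase. Their PFA-fixed means were 1.56 log2 CPM for GIP, 1.19 for AMN, 1.04 for ENTPD8, 0.996 for SLC51A and 0.66 for UOX.

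Skin, taste and other epithelia gave 7 genes. LY6G6C, a Ly6 family protein encoded in the major histocompatibility complex, was at 2.98, 1.94, 2.35 and 1.70 log2 CPM in PFA-fixed libraries, against -1.35, -1.36, -1.38 and -1.58 in fresh-frozen ones. It spread widely over the PFA-fixed libraries and held the highest single value of all 53 genes, in library 1, while its fresh-frozen values stood together. The difference was 3.66 on the log2 scale. ASIP, the secreted antagonist that switches pigment cells of the hair follicle from black to yellow pigment, was at 1.72, 2.03, 1.41 and 1.49 log2 CPM in PFA-fixed libraries, against -0.30, -0.16, -1.55 and -0.64 in fresh-frozen ones. Library 3 was lowest in both groups. TMC4, a transmembrane channel-like protein with a part in salt taste in mice, was at 2.05, 1.38, 1.23 and 1.91 log2 CPM in PFA-fixed libraries, against -0.46, -1.35, -0.18 and -1.77 in fresh-frozen ones. EHF, an ETS transcription factor of epithelia, was at 1.35, 1.35, 1.77 and 1.88 log2 CPM in PFA-fixed libraries, against -1.73, -0.47, -0.24 and -0.71 in fresh-frozen ones. In EHF libraries 3 and 4 were the high ones of the fixed group, and in TMC4 libraries 1 and 4. The epidermal protein repetin (RPTN) averaged 1.47 log2 CPM in PFA-fixed retina, the taste cell channel subunit CALHM3 averaged 1.10, and the olfactory receptor OR2AT2 averaged 0.97.

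Germ cell genes numbered 5. STRA8, which retinoic acid induces in germ cells before meiosis, was at 1.74, 1.19, 0.60 and 1.92 log2 CPM in PFA-fixed libraries, against -3.12, -2.27, -1.18 and -3.12 in fresh-frozen ones. The order of the libraries was opposite in the 2 groups at library 3, which was lowest among the fixed and highest among the fresh-frozen ones. CATSPER4, a pore subunit of the calcium channel of the sperm tail, was at 1.30, 1.14, 1.25 and 0.85 log2 CPM in PFA-fixed libraries, against -0.39, -1.06, -0.94 and -0.45 in fresh-frozen ones. The others were DNAJC5G, a testis member of the cysteine string protein family, C6H1orf146, whose counterpart in mice acts in meiotic recombination, and ACRBP, which binds proacrosin in the sperm acrosome. Their PFA-fixed means were 1.34, 1.02 and 0.89 log2 CPM in that order. Motile cilia, which sperm and airway cells share, added 3 genes. CIBAR2, C24H20orf85 and CFAP73 had PFA-fixed means of 1.40, 1.35 and 1.12 log2 CPM and differences of 2.06 to 2.60.

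The immune group had 6 genes. TNFRSF25, the death receptor DR3 of T cells, was at 2.21, 1.21, 1.83 and 1.93 log2 CPM in PFA-fixed libraries, against -3.12, -3.12, -3.12 and -0.34 in fresh-frozen ones. Fresh-frozen library 4 stood alone: the other 3 held no estimated read of the gene, and library 4 held 15.4. RUFY4, a regulator of autophagy in dendritic cells, was at 1.64, 2.13, 1.83 and 1.03 log2 CPM in PFA-fixed libraries, against -0.081, -0.80, -0.34 and -0.29 in fresh-frozen ones. Its fixed values spread over more than 1 log2 unit, with library 2 highest and library 4 lowest. SLAMF9, a SLAM family receptor, averaged 1.35 log2 CPM in PFA-fixed retina. TNFSF8, the ligand of CD30, averaged 1.33 there, and C20H19orf38, whose human counterpart is known from myeloid cells, averaged 1.25. CXCR5, the chemokine receptor that guides B cells into follicles, was among the 3 lowest of the 53 with a PFA-fixed mean of 0.56.

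HOXD13, which patterns digits and the genital bud, led the group of limb patterning and Wnt genes and had the largest difference of all. It was at 2.18, 1.83, 2.15 and 1.95 log2 CPM in PFA-fixed libraries, against -2.63, -3.12, -3.12 and -2.30 in fresh-frozen ones. The fixed values lay within 0.35 of each other, and fresh-frozen values stood for 0 to 2 estimated reads. The difference of 4.82 therefore depends on the reads the authors added before taking logarithms and sets no bound on a fold. APCDD1L, a relative of the Wnt inhibitor APCDD1, and KREMEN2, a receptor for the Wnt antagonist Dickkopf, were lower, with PFA-fixed means of 0.78 and 0.70 log2 CPM and differences of 1.93 and 1.16.

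The 53 included 3 inner ear genes, and all have a known part in hair cells of human or mouse. MINAR2, which is needed for hearing, was at 0.78, 1.42, 2.48 and 0.21 log2 CPM in PFA-fixed libraries, against -0.39, -0.11, -1.61 and -0.25 in fresh-frozen ones. It varied more than any other of the 53 in fixed retina (SD 0.97), and library 3 was highest of the fixed but lowest of the fresh-frozen libraries. CHRNA10, the acetylcholine receptor subunit of cochlear hair cells, and STRC, the stereocilia protein stereocilin, averaged 1.04 and 0.85 log2 CPM in PFA-fixed retina. Muscle, bone and heart gave 4 genes. BEST3, a bestrophin of muscle and heart, averaged 1.30 log2 CPM in fixed retina, the muscle and bone hormone OSTN averaged 1.06, and CCDC154, a bone gene in mice, averaged 0.78. The myosin light chain MYL5 is reported in humans from retina as well as muscle. It was at 0.32, 1.94, 0.50 and 0.97 log2 CPM in PFA-fixed libraries, against -0.15, -0.92, -0.34 and -0.29 in fresh-frozen ones, so that PFA-fixed library 2 stood above the rest.

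Genes known from neurons or as channels numbered 3, and none is a marker of a retinal cell type on the lists used here. The zinc-activated channel ZACN averaged 1.42 log2 CPM in PFA-fixed retina, GRID2IP, a scaffold of Purkinje cell synapses, averaged 1.05, and the guanine nucleotide exchange factor PLEKHG4 averaged 0.53. PLEKHG4 was also the gene with the smallest difference, 1.07. Widely expressed enzymes and subunits formed the last group of 3. DPM2, a subunit of dolichol phosphate mannose synthase, averaged 1.45 log2 CPM in PFA-fixed and -0.45 in fresh-frozen retina. TMEM86B, a lysoplasmalogenase, averaged 0.78 in PFA-fixed and -1.07 in fresh-frozen retina. ATP5MJ, a small subunit of mitochondrial ATP synthase, was at 0.93, 0.95, 0.74 and 0.22 log2 CPM in PFA-fixed libraries, against -3.12, -1.20, -1.76 and -2.30 in fresh-frozen ones.

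ATP5MJ and DPM2 encode parts of complexes that most cells carry, and their partners were far more abundant in both groups. The other 15 measured genes with ATP synthase symbols had means of 3.94 to 8.76 log2 CPM in PFA-fixed and 3.45 to 9.53 log2 CPM in fresh-frozen retina. Of these, limma called 7 higher and 8 lower in PFA-fixed retina, and the split was 2 and 8 when the libraries were aligned on the rod markers' mean. DPM1, the catalytic partner of DPM2, averaged 4.76 ± 0.16 log2 CPM in PFA-fixed and 4.40 ± 0.10 in fresh-frozen retina (SD, n = 4 each; difference 0.36, limma adjusted p = 0.00939). That call was lost after that alignment (difference 0.11).

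For 8 genes no role could be given with certainty. CCDC60 was at 1.72, 1.57, 1.53 and 2.14 log2 CPM in PFA-fixed libraries, against -0.53, -0.19, -1.42 and -0.34 in fresh-frozen ones. C8H14orf180 was at 1.68, 1.83, 1.33 and 1.63 log2 CPM in PFA-fixed libraries, against -0.31, -1.54, -0.18 and -0.97 in fresh-frozen ones. Both were within 0.61 of a log2 unit across the fixed libraries, a narrower range than across the fresh-frozen ones. ANKEF1, HEATR9, ANKRD61, RINL and C1orf232 had PFA-fixed means of 0.75 to 1.27 log2 CPM. ANKRD61 was the steadiest of the 53 in fixed retina, with an SD of 0.053. PVALEF, a parvalbumin-like EF-hand protein by its name, had the lowest PFA-fixed mean, 0.45.

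**Figure D2:**
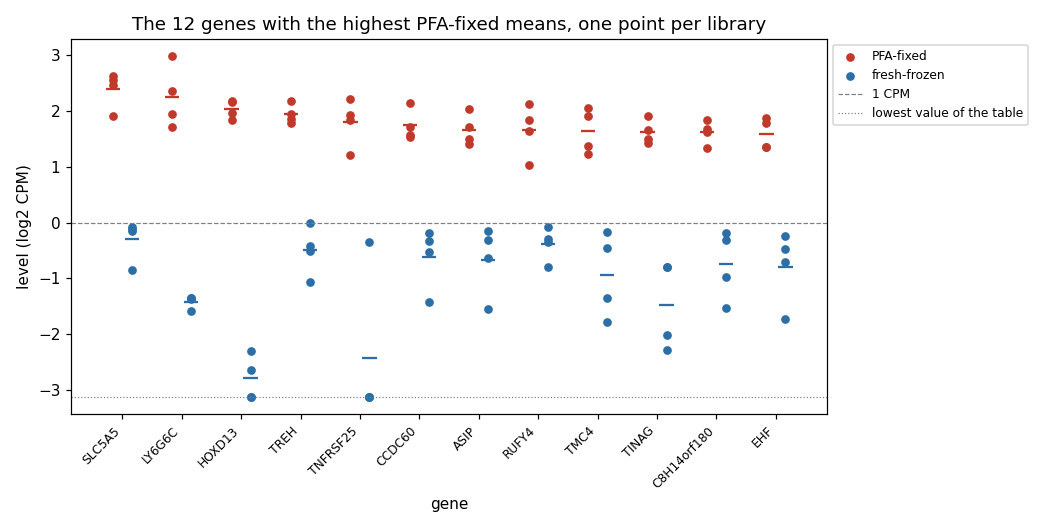
Level (log2 CPM) of the 12 genes with the highest PFA-fixed means in each PFA-fixed library (red, left of each pair) and each fresh-frozen library (blue); short lines are means over 4 libraries. Fixed values lie between 1.03 and 2.98, and 3 fresh-frozen values of TNFRSF25 and 2 of HOXD13 lie on the lowest value of the table (dotted line).

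The spread between libraries was close to that of other genes in the same range of PFA-fixed means. In PFA-fixed retina the SD over 4 libraries had a median of 0.31 over the 53 genes. For the 1583 other genes with a PFA-fixed mean in the same range the median SD was also 0.31, and 11 of the 53 lay above the 75th percentile of those genes, 0.43. Within that range those genes stood higher, with a median PFA-fixed mean of 1.58 log2 CPM against 1.22 for the 53. The filter requires the 53 to exceed 1 CPM in every PFA-fixed library. Among the 1533 other genes that did so too, the median SD was 0.306. The range over the fixed libraries was under 1 log2 unit for 44 of the 53. MINAR2, MYL5 (SD 0.72), STRA8 (SD 0.59) and LY6G6C (SD 0.56) were the most variable. Since the filter holds every fixed value of the 53 above 1 CPM, none of them could rest on a single fixed library. Library 1 was highest for 16 genes, library 2 for 19, library 3 for 5 and library 4 for 13. Library 3, the deepest of the fixed libraries, was also the lowest for 22 genes. The median deviation of the 53 from their own PFA-fixed mean was -0.16 there. It was -0.063 for the 1533 other genes, for which library 3 was also the lowest. In the fresh-frozen libraries the median SD was 0.56. Of the 212 fresh-frozen values, 10 stood at the lowest value of the table, in 6 genes: TNFRSF25 with 3, HOXD13 and STRA8 with 2 each, and OR2AT2, ATP5MJ and PVALEF with 1 each.

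The reads behind these values are few. With the estimated depth of each library, the values stood for 12 to 96 reads in PFA-fixed libraries, with a median of 28, against 0 to 20 reads in fresh-frozen libraries, with a median of 10.7. These estimates are not scaled for depth, and the choice of the genes largely sets them. The ratio of mean reads, PFA-fixed over fresh-frozen, had a median of 2.73 and ran from 1.33 to 68.6. KREMEN2, for example, stood for 17.2, 20, 21.1 and 18.5 reads in PFA-fixed libraries, against 18.5, 8.7, 11.1 and 18.1 reads in fresh-frozen ones. Its unscaled reads overlapped between the groups, and its CPM values did not.

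**Figure D3:**
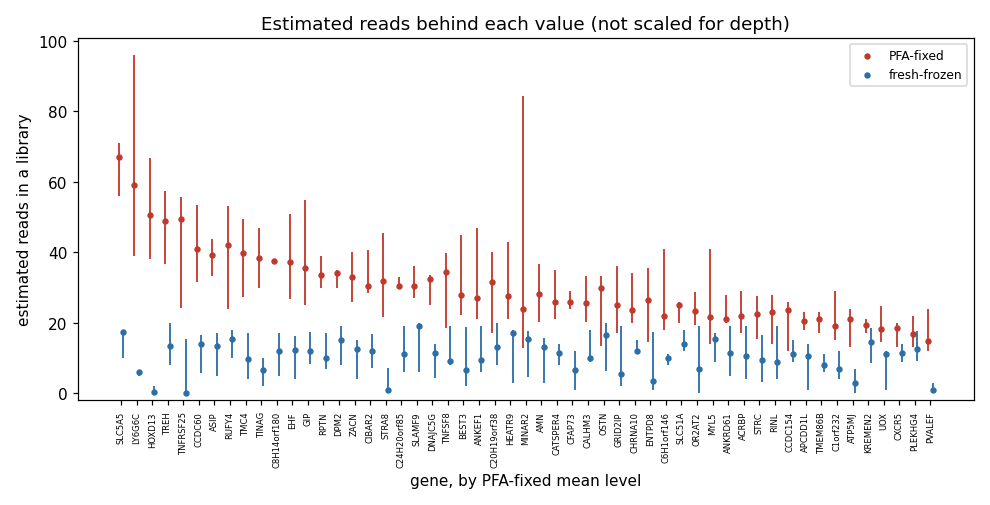
Estimated reads per library behind each of the 53 genes, ordered by PFA-fixed mean level; points are medians and lines the range over 4 PFA-fixed (red) or 4 fresh-frozen (blue) libraries, not scaled for depth. The fixed values reach 96 reads and the fresh-frozen values 20.

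The threshold of 1 CPM cut through a continuous range of values. Just inside it, the highest fresh-frozen value was -0.0091 log2 CPM for both C20H19orf38 and SLAMF9 and -0.0092 for TREH. Just outside, it was 0.027 for IL18RAP, a subunit of the interleukin-18 receptor, 0.046 for the claudin CLDN20 and 0.046 for the scavenger receptor SSC4D. The differences of these 3 genes outside were 1.35, 1.54 and 0.99 on the log2 scale, against a smallest difference of 1.07 among the 53. A further 71 genes were below 1 CPM in exactly 3 fresh-frozen libraries. Under a threshold of 0.5 CPM only ATP5MJ, HOXD13, LY6G6C, PVALEF and STRA8 remained.

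Genes known from the same tissues but not among the 53 were read from lists of 14 tissues outside the eye. The lists hold 281 genes, of which 93 were measured, and 3 of these were among the 53 (HOXD13, STRA8 and CATSPER4). Of the other 90, limma called 42 higher and 19 lower in PFA-fixed retina and left 29 uncalled, and the median difference was 0.48 on the log2 scale. Since the filter favours genes high in one group, the count was repeated for the 62 that exceeded 1 CPM in all 8 libraries. Among these, 34 (54.8%) were higher and 9 (14.5%) lower, against 34.4% higher and 33.8% lower of all 11959 such genes. Of the 4276 such genes with means between 2.29 and 4.83 log2 CPM, 27.2% were called higher and 37.5% lower. Some of the 62 lay outside that range, with CMYA5 above and GKN1 below it, so this is no match by level. Between 43.5% and 64.5% of the 62 were higher under 4 other scalings of the libraries and between 11.3% and 21.0% were lower, against 21.3% to 38.5% higher and 30.1% to 46.5% lower of all 11959.

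The lists differed in direction. A gene below 1 CPM in one group is in the table only through the other, which fixes its direction, so each count is followed by that over genes above 1 CPM in all 8 libraries. On the testis and male germ cell list, 10 of 12 genes were higher in PFA-fixed retina and none was lower, with a median difference of 1.10. Above 1 CPM in all libraries, 8 of 9 were higher. SPATA16, an acrosome protein, averaged 3.37 ± 0.17 log2 CPM in PFA-fixed and 0.71 ± 0.14 in fresh-frozen retina (difference 2.66, limma adjusted p = 9.56e-08). INSL3, the hormone of Leydig cells, averaged 2.40 ± 0.50 in PFA-fixed and 0.15 ± 0.50 in fresh-frozen retina (difference 2.25, limma adjusted p = 6.09e-05). The number called higher was 7 to 11 under the other scalings, and 1 gene, PIWIL1, was called lower when libraries were aligned on the rod markers' mean. Gut genes were higher in 4 of 5 (2 of 3 above 1 CPM in all libraries), led by the microvillus protein VIL1 (2.86) and the cadherin CDH17 (1.94). Lung and airway genes were higher in 4 of 4 (3 of 3), led by AGER (2.51) and NAPSA (1.53), and ovary genes in 3 of 3 (2 of 2), led by AMH (1.96) and LHCGR (1.23). Of heart genes 3 of 6 were higher (2 of 4) and none lower, led by MYL7 (2.54) and TNNT2 (2.21). The heart list varied widely between fresh-frozen libraries, with sums of 46.5 to 274 CPM, against 151 to 183 CPM in PFA-fixed ones. Only 3 of 39 HOX cluster genes were measured. Beside HOXD13 these were HOXA10, at 6.24 ± 0.24 log2 CPM in PFA-fixed and 1.51 ± 0.79 in fresh-frozen retina (difference 4.73, limma adjusted p = 1.07e-07), and HOXC6, at 2.12 ± 0.19 in PFA-fixed and 0.96 ± 0.53 in fresh-frozen retina (difference 1.16, limma adjusted p = 0.00235).

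Among the remaining tissues outside the eye, several lower calls belonged to genes whose direction the filter fixed. Of 11 skeletal muscle genes, all above 1 CPM in every library, 4 were higher, 2 lower and 5 uncalled. Fresh-frozen libraries differed strongly from each other in these genes, which summed to between 268 and 1168 CPM there. That spread limits the calls of this list. CMYA5 was 4.16 higher, and DES averaged 2.04 log2 CPM in PFA-fixed and 5.85 in fresh-frozen retina. Of 6 kidney genes 2 were higher and 1 lower, with NPHS1 at a difference of 3.33 and SLC22A6 at -3.99, and above 1 CPM in all libraries 2 of 5 were higher and none lower. Of 9 liver genes 2 were higher and 3 lower, and above 1 CPM in all libraries 2 of 5 were higher and 1 lower. SERPINA1 (-4.06) and HNF4A (-2.30) lay below 1 CPM in every PFA-fixed library. Pancreas genes were higher in 2 of 4 (2 of 3) and lower in none, with NKX6-1 at 5.38 and CEL at 0.39. Epidermis genes were higher in 2 of 3 and lower in 1 (1 and 1 of 2), with TGM1 at 1.34 and KRT10 at 1.08. Of 13 genes of other brain regions 3 were higher and 3 lower, with EMX2 at 3.23, and above 1 CPM in all libraries 3 of 7 were higher and 1 lower. LHX6 (-3.13) lay below 1 CPM in every PFA-fixed library. None of the 4 measured genes of pituitary, thyroid and adrenal gland exceeded 1 CPM in all libraries. Of these, PRL differed by -3.02 and TSHR by -1.65, and nothing is read from their direction. Cartilage and bone genes were lower in 6 of 8 and higher in 1 (4 and 1 of 6), with CHAD at -6.60 and ACAN at -3.59. Differences in this paragraph are on the log2 scale.

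Immune and signalling lists outside the 14 tissues leaned to lower levels in PFA-fixed retina. Lymphocyte and myeloid genes were lower in 8 of 14 and higher in 4 (5 and 2 of the 8 above 1 CPM in all libraries), with the complement genes C1QC at -3.25 and C1QA at -2.80 on the log2 scale. Their summed level was 93.1 to 97.6 CPM in PFA-fixed and 192 to 235 CPM in fresh-frozen libraries, while the 6 immune genes among the 53 were, by their choice, higher in PFA-fixed libraries. Endothelium, pericyte and blood genes were lower in 10 of 13 and higher in 1 (10 and 1 of 12), with ACTA2 at -3.84 and PECAM1 at -3.26. Cytokines and interleukin receptors were lower in 6 of 12 and higher in 3 (5 and 2 of 8), with IL10RA at -2.56 and IL1R1 at -2.45. The GDNF family and neurotrophins were lower in 5 of 10 and higher in 1 (5 and 0 of 8), with NGFR at -2.27 and GDNF itself at 5.68. Fibroblast growth factors and their receptors were lower in 6 of 15 and higher in 3 (5 and 3 of 13), with FGFR2 at -4.56 and FGFR3 at -2.63. Lens, cornea and conjunctiva genes were higher in 3 of 6 and lower in 2 (1 and 1 of 3), with KRT12 at 1.93 and CRYGS at 1.89. The 2 genes with the largest change per list are those named here.

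**Figure D4:**
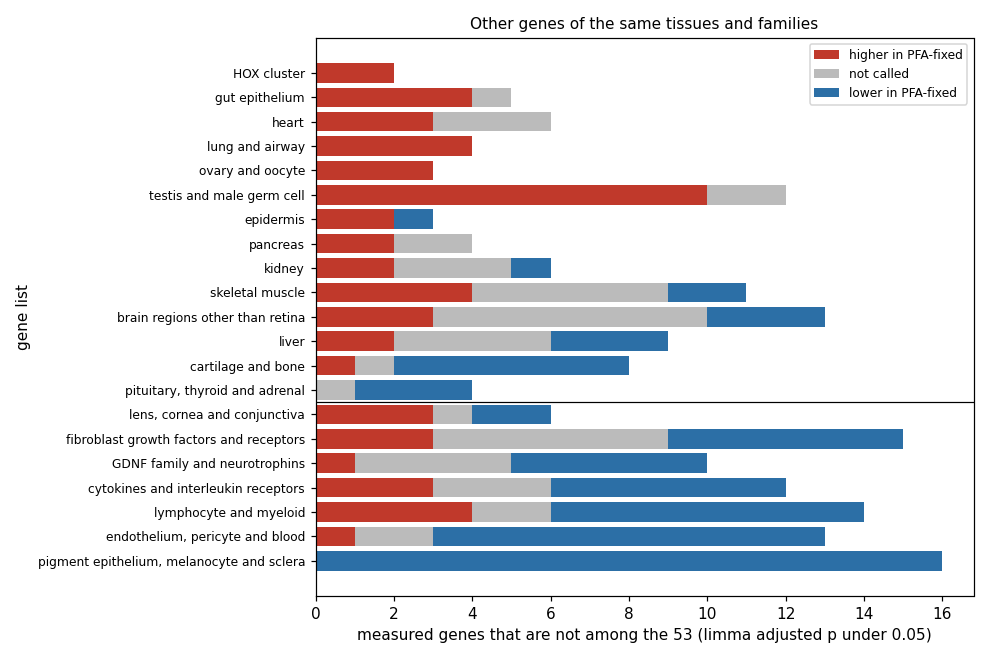
Number of measured genes per list, leaving out the 53, that limma called higher (red), left uncalled (grey) or called lower (blue) in PFA-fixed retina at an adjusted p under 0.05; lists above the line are the 14 tissues outside the eye. Testis genes stand at 10 higher of 12 and pigment epithelium, melanocyte and sclera genes at 16 lower of 16. Above 1 CPM in all 8 libraries these are 8 of 9 and 11 of 11.

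Relatives of the 53 were also read by gene family, a choice made after their values were seen. Cilia and flagella associated proteins, the family of CFAP73, were the largest. Of 28 others measured, 21 were higher in PFA-fixed retina and 1 lower, with a median difference of 1.04 on the log2 scale, and under the other scalings 17 to 22 were higher and 0 to 3 lower. Over 1 CPM in all 8 libraries, 18 of 24 were higher and 1 lower. CATSPER2, CATSPERE and CATSPERG, further parts of the sperm calcium channel, were all higher, by 1.53, 1.09 and 1.11. CATSPER2, which is also on the testis list and beside STRC, did not exceed 1 CPM in all libraries, and the other 2 did. Olfactory receptors beside OR2AT2 were higher in 7 of 9 and lower in none, led by OR13D3 (2.36) and OR6V1 (2.06), and in 4 of the 4 that exceeded 1 CPM in all libraries. All 3 relatives of RUFY4 were higher under each scaling, with a median difference of 0.76.

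In other families the relatives went in both directions, some were lower, or most were left uncalled. CALHM1, the partner of CALHM3 in the taste cell channel, averaged 0.21 ± 0.61 log2 CPM in PFA-fixed and 1.92 ± 0.33 in fresh-frozen retina (difference -1.71, limma adjusted p = 0.00054), and CALHM5 differed by -3.53. Neither exceeded 1 CPM in all libraries, so the filter bears on their direction. BEST1, the bestrophin of the pigment epithelium, averaged 2.66 ± 0.71 log2 CPM in PFA-fixed and 6.55 ± 0.15 in fresh-frozen retina (difference -3.89, limma adjusted p = 1.71e-07). KREMEN1 differed by -0.98. Relatives of TNFRSF25 in the TNF receptor family were higher in 3 of 9 and lower in 5 (3 and 4 of the 8 above 1 CPM in all libraries), with TNFRSF17 at 2.18 and TNFRSF11B at -5.31. Relatives of SLC5A5 were lower in 2 of 3, with SLC5A2, a glucose transporter of kidney, at -2.53. Of 13 further nicotinic receptor subunits beside CHRNA10, 3 were higher, CHRNA2 by 2.30, CHRND by 2.18 and CHRNB1 by 1.33, and 10 were left uncalled. Above 1 CPM in all libraries, 2 of 12 were higher. Relatives of TMC4 were higher in 1 of 3 (TMC8, by 1.98) and lower in 1, and none exceeded 1 CPM in all libraries. Relatives of TNFSF8 were higher in 1 of 4 (TNFSF4, by 1.81) and lower in 2. Above 1 CPM in all libraries, 0 of 3 were higher and 2 lower. Relatives of ENTPD8 were higher in 2 of 7, with ENTPD1 at 2.47, and lower in 2 (2 and 1 of the 6 above 1 CPM in all libraries).

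The neighbours of the 53 on the chromosomes gave a further comparison that the rule did not use. Nearest protein-coding genes on each side, and genes overlapping a member, were taken by name from a RefSeq gene table of the assembly UU_Cfam_GSD_1.0, in which 52 of the 53 were found. For 46 of them 74 measured neighbours were available, and no neighbour was itself among the 53. Limma called 23 of the 74 (31.1%) higher and 24 (32.4%) lower in PFA-fixed retina and left 27 uncalled, shares close to the 33.9% and 34.7% of all genes. The median difference was -0.10 on the log2 scale. With the libraries aligned on the rod markers' mean, 16 were higher and 38 lower. The measured neighbours had a median level of 5.38 log2 CPM in PFA-fixed and 5.34 in fresh-frozen retina, against 4.88 and 4.97 over all genes. Of 118 neighbour places, 44 had no measured gene, so these levels and counts cover only neighbours that passed the filter. Beside the 12 highest of the 53, 3 of 13 neighbours were higher, 6 lower and 4 uncalled.

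Single neighbours illustrate both directions. MPIG6B, a platelet receptor beside LY6G6C, was at 8.04, 7.69, 7.78 and 7.45 log2 CPM in PFA-fixed libraries, against 5.31, 5.71, 5.33 and 5.33 in fresh-frozen ones (difference 2.32, limma adjusted p = 2.05e-08). Its order over the fixed libraries was that of LY6G6C. ESPN, an actin bundling protein of stereocilia beside TNFRSF25, was higher by 1.5 (limma adjusted p = 7.03e-08), and PLEKHG5 on the other side differed by -0.091 without a call. TREH overlaps PHLDB1, which averaged 4.42 ± 0.12 log2 CPM in PFA-fixed and 6.91 ± 0.14 in fresh-frozen retina (difference -2.49, limma adjusted p = 1.25e-09). Both neighbours of HOXD13, EVX2 and HOXD12, were not analysed here. PDE6B, the rod phosphodiesterase subunit beside MYL5, was higher by 1.11, and SLC49A3 on the other side lower with a difference of -1.97. For LENG1 and MBOAT7, the neighbours of TMC4, the differences were 0.92 and -0.64, for ARCN1 beside TREH -0.36, for HSPB8 beside CCDC60 -1.25 and for TNS1 beside RUFY4 -2.24, all of them called. EIF2S2 beside ASIP (-0.10), MLIP beside TINAG (-0.38) and TMEM179 beside C8H14orf180 (-0.083) were not called.

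ADAMTS19 beside MINAR2 was singled out after its values were seen. It was at 7.27, 8.13, 8.41 and 5.94 log2 CPM in PFA-fixed libraries, against 6.19, 6.21, 4.48 and 5.08 in fresh-frozen ones (difference 1.95, limma adjusted p = 0.00501). MINAR2 had the same order over the fixed libraries, and both genes were lowest in library 3 and highest in library 2 among the fresh-frozen ones. CHSY3, on the other side of MINAR2, was lower in fixed retina with a difference of -2.32 (limma adjusted p = 9.78e-08). Among the 53, 12 overlap a protein-coding gene in the gene table. How reads of overlapping or near-identical genes were shared out is not given in the sources used here, which leaves the values of those 12, and of OR2AT2 beside OR2AT2B, uncertain on that point.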

How the data were processed

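RNA of 4 PFA-fixed and 4 fresh-frozen dog retina libraries was sequenced. Per the submitters' processing notes the authors used kallisto 0.48.0 (a pseudo-aligner), edgeR and limma. Reference, strand setting and filter were not given there. Values were deposited as log2 CPM, 8 columns for 12824 genes, with a shared lowest value of -3.12 (0.115 CPM), so reads were added before the logarithm. It is not a count table, and no count model was run.

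The 53 genes and all lists were chosen with earlier results of these data known. The text names every one of the 53, with all values for the 12 highest PFA-fixed means and for those on a list, the 3 nearest the threshold on each side, the 2 largest changes per list and the neighbours of the 12 highest; families and some neighbours were added after values were seen. Some genes that the rule takes are not reported here.

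Differences are PFA-fixed minus fresh-frozen. In R 4.3.3, limma 3.58.1 (intensity trend) was fitted to all genes with the group as the only term and Benjamini-Hochberg adjustment at 0.05. The step was tested on simulated data. Depth was estimated from the spacing of values up to 20 reads, searched between 0.03 and 0.15 CPM per read. At the spacing found, 61.4% to 68.5% of values were whole reads within 0.1, where a spacing not fitted to them gives 20% by chance. The spacing was fitted to these same values, so the shares do not test the estimate. Of the symbols, 12497 matched the gene table. Tables used Python 3.11.15 and pandas 2.3.3. Alternatives were other thresholds and scalings, the replicate number as a block, leaving out each library, no intensity trend, a minimum mean of 3 log2 CPM and a minimum change of 1.5-fold. Promoter and protein features were not analysed here.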

Additional observations from a re-analysis of the deposited data

Results flagged for a closer look

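Within groups of 4 libraries, 1 value far from the other 3 was looked for in 282 groups of named genes. It was found in 22, where chance alone gives about 1 in 20. Of these, 9 were in the 106 groups of the 53 genes, whose choice that rate does not take into account. The values are in log2 CPM, and no explanation was tested.

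Among the 53 genes the far value was mostly a low one in a fresh-frozen library. The rule holds all their fresh-frozen values below 0, which leaves little room for a high one, so nothing is read from that direction. AMN was at -2.0 in fresh-frozen library 2, against -0.53 to -0.32 in the other 3. HEATR9 was at -2.0 in fresh-frozen library 3, against -0.24 to -0.08 in the others. SLAMF9 was at -1.36 in fresh-frozen library 2, against -0.04 to -0.01, and UOX at -2.63 in fresh-frozen library 1, against -0.7 to -0.59. SLC5A5 was at -0.85 in fresh-frozen library 4, against -0.15 to -0.09, and LY6G6C at -1.58 there, against -1.38 to -1.35. TNFRSF25 was the exception in direction, at -0.34 in fresh-frozen library 4 with the other 3 at -3.12. In PFA-fixed retina PVALEF was at 1.03 in library 4, against 0.22 to 0.29, and DNAJC5G at 0.8 in library 3, against 1.48 to 1.57.

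Among the other genes named, 2 germ cell genes were high in PFA-fixed library 4: MEIOB at 2.16, against 0.8 to 0.87, and SYCP2 at 5.0, against 3.89 to 3.96. AGER at 3.21, against 3.6 to 3.66, and TNS1 at 5.67, against 6.1 to 6.14, were low there. TSHR was at 0.6 in PFA-fixed library 3, against -0.95 to -0.91. Fresh-frozen library 1 was high for DES at 6.66 (others 5.51 to 5.66), for KREMEN1 at 6.14 (others 5.74) and for TNC at 7.69 (others 6.2 to 6.42). It was low for CLDN20 at -1.98 (others -0.14 to 0.05) and for IL18RAP at -0.53 (others -0.02 to 0.03). Fresh-frozen library 2 was high for ARCN1 at 8.05 (others 7.87 to 7.89), for CATSPERE at 1.37 (others 0.58 to 0.68) and for MPIG6B at 5.71 (others 5.31 to 5.33).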

How the results depend on the processing

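No called difference named changed sign under any alternative run; that of TMEM179, not called at -0.083, was 0.0021 without PFA-fixed library 3 and 0.014 without fresh-frozen library 3. The rule kept 53 genes at 1 CPM, 5 at 0.5 CPM, 375 at 2 CPM, 188 with a fresh-frozen mean under 1 CPM and 93 after quantile normalization. Without each fresh-frozen library in turn it kept 69 to 72, all 53 among them. The median difference of the 53 was 2.75 after quantile normalization and 2.00 to 2.07 with 1 library left out. Over 12 alternatives, 46 of the values of the 53 moved by more than the spread between replicates, 43 of them under quantile normalization and 3 with libraries aligned on the rod markers' mean (CHRNA10 1.35, CXCR5 0.98, SLC51A 1.13).

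Of all genes, 4353 were higher and 4451 lower. The counts were 1530 and 1813 with a minimum change of 1.5-fold, 2744 and 5999 with the rod list mean as centre, 3105 and 5525 with its median, 4872 and 4008 after quantile normalization and 4853 and 4001 after median centring. The median difference of all genes changed sign with the scaling: it was -0.018 as deposited, 0.072 after quantile normalization, 0.061 after median centring, and -0.27 and -0.20 with the rod mean and median. Without 1 library 4107 to 4285 were higher and 4231 to 4380 lower. Of the 176 list genes that are not among the 53, 57 were higher and 72 lower. With a minimum mean of 3 log2 CPM the counts were 26 and 46, since fewer genes were tested, with 1.5-fold 35 were higher, and without 1 library 53 to 61 were higher and 69 to 74 lower. Centring on the rod list and the restriction to genes over 1 CPM in all libraries were chosen after seeing the data.

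The labels do not say whether the replicate numbers pair the samples. Correlations of same-numbered deviations were 0.05, 0.15, -0.09 and 0.22, and not every library correlated best with its own number. With 4 libraries per group these correlations cannot settle whether samples were paired. With the number as a block 4336 genes were higher and 4463 lower, and 57 and 71 of the list genes. Of 88 other genes named, 6 lost a call somewhere. CEL, DPM1, PIWIL2 and TEX15 lost it with rod list centring, SSC4D also without PFA-fixed library 3 or 4 or fresh-frozen library 3, and TDRD9 also without PFA-fixed library 1 or 4 or fresh-frozen library 3 or 4. MEIOB, EIF2S2, PIWIL1 and PLEKHG5 gained one; the cause was not tested. Values near 1 CPM rest on about 11.3 reads in PFA-fixed and 19.6 in fresh-frozen libraries, which limits single genes. Promoter and protein features were not run.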
